A study of Mus musculus with 14 samples.

Results

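The genes described are those of the proteasome, the protease that degrades proteins tagged with ubiquitin, together with its activators, its inhibitor and its assembly factors. Members were all genes of the array whose symbol begins with Psma, Psmb, Psmc, Psmd, Psme, Psmf or Psmg followed by a digit. Of 12393 genes with a probe set, 48 met this rule. The symbols of 2 of these, Psmc3ip and Psme3ip1, belong to interaction partners of a subunit and of an activator, so 46 genes were treated as members. The 46 comprised 7 alpha and 7 beta subunits of the 20S core, 3 immunoproteasome subunits, 6 ATPase and 11 non-ATPase subunits of the 19S regulatory particle, 3 activators, 1 inhibitor, 7 assembly chaperones and 1 testis alpha subunit. After the dimmest 40% of genes on the array were left out, 43 members and 7436 genes in all were tested, and Psma8, Psmb9 and Psmg3 lay below that limit.

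RNA of epididymal fat, a white fat depot beside the epididymis, had been hybridised to single-colour Affymetrix arrays for 14 ICR mice labelled male and aged 3 weeks. UC mice (n = 5) had dams whose food was cut by 50% in pregnancy and that ate freely while nursing. UU mice (n = 4) had dams with the same 50% restriction in pregnancy and through suckling, and CC mice (n = 5) had dams that ate freely throughout. The title of the series concerns fat genes and catch-up growth after low birth weight, and no label names the proteasome. Litters are not given, so p-values measure the spread between arrays that may share a dam.

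The proteasome is a barrel of stacked rings: outer alpha rings gate the entry, and inner beta rings carry the active sites Psmb5, Psmb6 and Psmb7. The 19S particle caps the barrel, holds the ubiquitin chain, removes it and threads the protein in by ATP hydrolysis. Interferon and cells of the immune system replace the active beta subunits by Psmb8, Psmb9 and Psmb10, which favours peptides that fit MHC class I, and fat cells use the same machinery for the turnover of metabolic regulators.

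The deposited signals were scaled to a like trimmed mean, and the arrays were unlike in tissue make-up. Adipoq, the adiponectin gene that defines fat cells, had signals of 43138 to 87601 in UC, 25263 to 45790 in UU and 46716 to 88737 in CC. The mean log2 level of 7 markers of epididymal epithelium, 6 of them tested, was 7.12 to 12.55 in UC, 10.85 to 12.75 in UU and 6.92 to 13.08 in CC. CC replicates 2 and 4 and UC replicates 2 and 5 were at the low end. Xist, the RNA of the inactive X chromosome, was at 5642.5 in UC replicate 5 and 3980.6 in CC replicate 2 and at most 1324.3 in the other arrays, against their male labels. The log2 ratio of 3' over 5' control probe sets, a measure of RNA integrity, averaged 1.22 in UC, 1.15 in UU and 0.71 in CC, and was highest in UC replicates 1 and 4 and UU replicate 3.

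No proteasome gene passed the test in any comparison. Differences are given as log2 differences of signal + 32, and a gene was called at a limma adjusted p under 0.05 over all 7436 genes. Of 43 members, 0 were called in UC against CC and 0 in UU against CC, where 0% of all tested genes were called. Of the same 43, 0 were called in UC against UU, where 60 genes (0.807%) were called. The smallest adjusted p of any member was 0.518 for UC against CC, 0.174 for UU against CC and 0.211 for UC against UU. The median difference of the members was -0.07 for UC against CC, with 14 of 43 above 0, where the median of all genes was -0.00, and it was 0.06 with the 3'/5' ratio in the model. For UU against CC it was -0.05, with 19 of 43 above 0, where all genes had 0.05, and it was 0.07 without UU replicate 3. For UC against UU it was -0.03, with 19 of 43 above 0, where all genes had -0.06, and it was 0.11 with median centring of the arrays. With any single array left out, the median in UC against CC stayed below 0, from -0.16 to -0.04. Its sign turned only with the 3'/5' ratio in the model. The sign of the medians for the other comparisons depends on single arrays and on the settings. The comparisons of UC and of UU with CC share the 5 CC arrays, and both comparisons that involve UC share the 5 UC arrays. Bulk tissue does not separate fewer cells of a type from less RNA per cell.

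The 95% interval of the difference, taken gene by gene, lay wholly within a 2-fold change either way for 38 of 43 members in UC against CC, for 39 in UU against CC and for 41 between UC and UU. The members whose interval reached past 2-fold were Psmb8, Psmc3, Psmd6, Psmd7 and Psmd10 in UC against CC. The same held for Psmb8, Psmc3, Psmd6 and Psmd7 in UU against CC. Between UC and UU it held for Psmd6 and Psmd10. All 14 core alpha and beta subunits had intervals within 2-fold in every comparison.

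**Figure D1:**
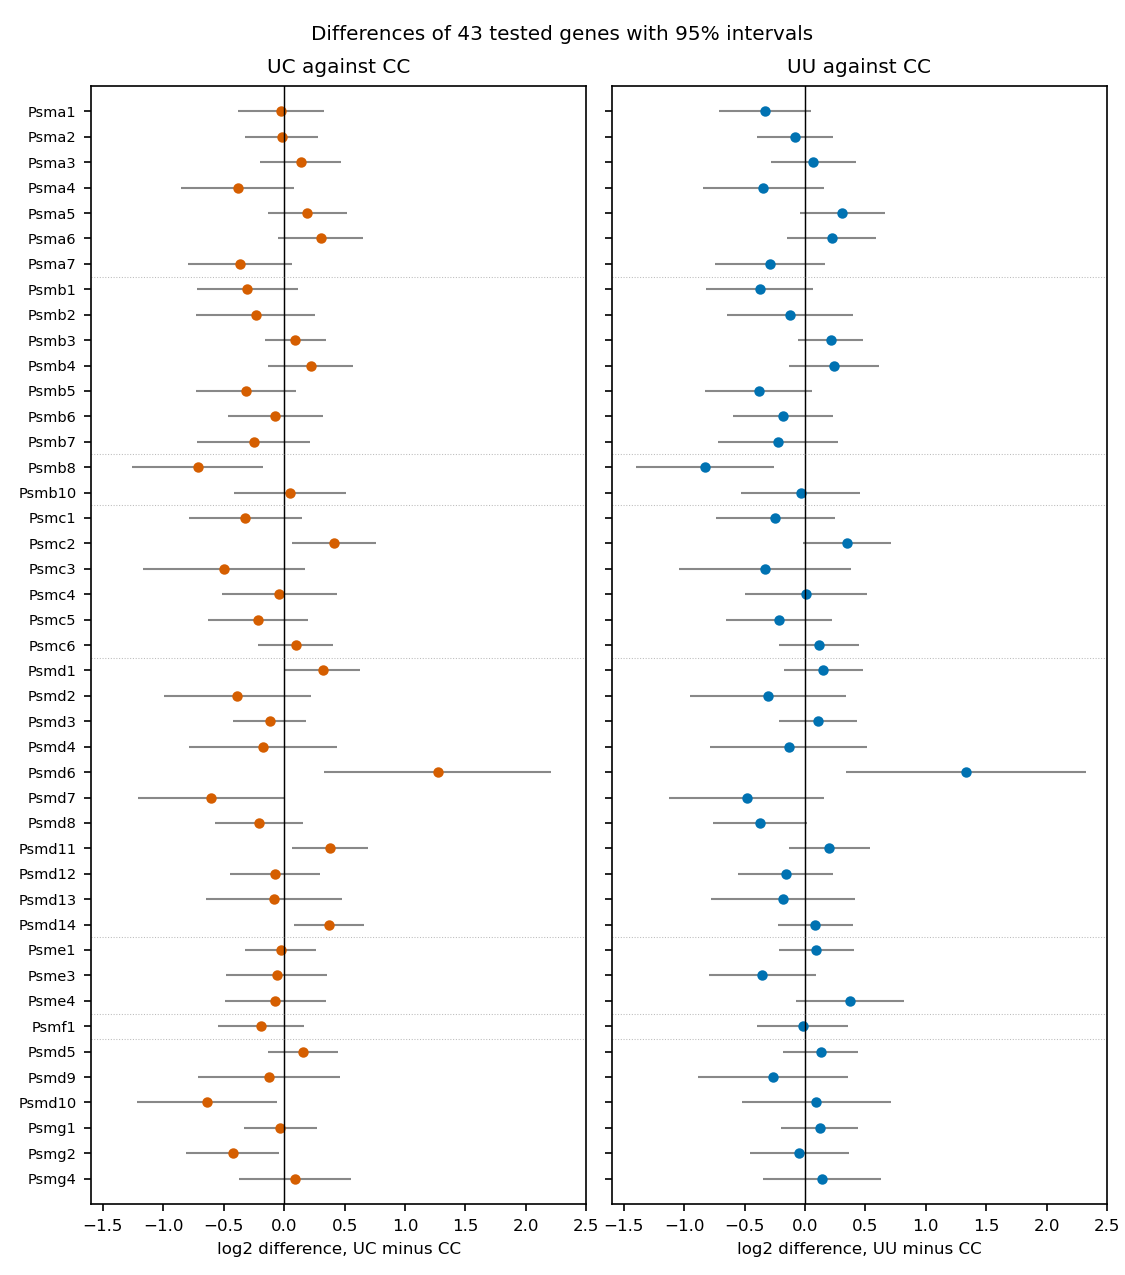
Log2 difference (x axis) of each of the 43 tested proteasome genes (rows, grouped by class between dotted lines), UC minus CC on the left and UU minus CC on the right. Points are limma estimates and lines 95% intervals. Most lines cross 0, and Psmd6 at 1.27 and 1.33 and Psmb8 at -0.72 and -0.83 lie farthest out.

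More members had a small unadjusted p in UC against CC than in the other comparisons. At an unadjusted limma p under 0.05, 9 of 43 members (20.9%) were counted in UC against CC, where 8.75% of all tested genes were. Psmd6, Psmd14, Psmd11, Psmc2 and Psmd1 were higher in UC, and Psmb8, Psmg2, Psmd10 and Psmd7 were lower. Without UC replicate 4 the count was 3 of 43 (6.98%, where 5.43% of all genes were counted), and without UC replicate 1 it was 5 (11.6%, where 7.57% were). Without CC replicate 1 it was 4 (9.30%, where 6.05% were), and without CC replicate 4 it was 5 (11.6%, where 8.32% were). UC replicates 1 and 4 have high 3'/5' ratios. Without the 3 arrays of highest ratio the count was 3 of 43, or 6.98% against 5.29% of all genes. With the ratio in the model it was 1 of 43, or 2.33% against 4.79%. In UU against CC the count was 2 of 43 (4.65%), Psmb8 lower and Psmd6 higher, where 16.4% of all genes were counted. In UC against UU it was 2 of 43 (4.65%), Psmd10 and Psme4 lower, where 17.9% of all genes were counted.

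Few members separated the groups completely. In UC against CC the groups did not overlap for 1 of 43 members (2.3%), Psmd14, where 1.79% of all tested genes did not overlap. In UU against CC it was 1 of 43 (2.3%), Psma1, where 8.34% of all genes did not overlap. In UC against UU it was 0 of 43, where 6.00% of all genes did not overlap.

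**Figure D2:**
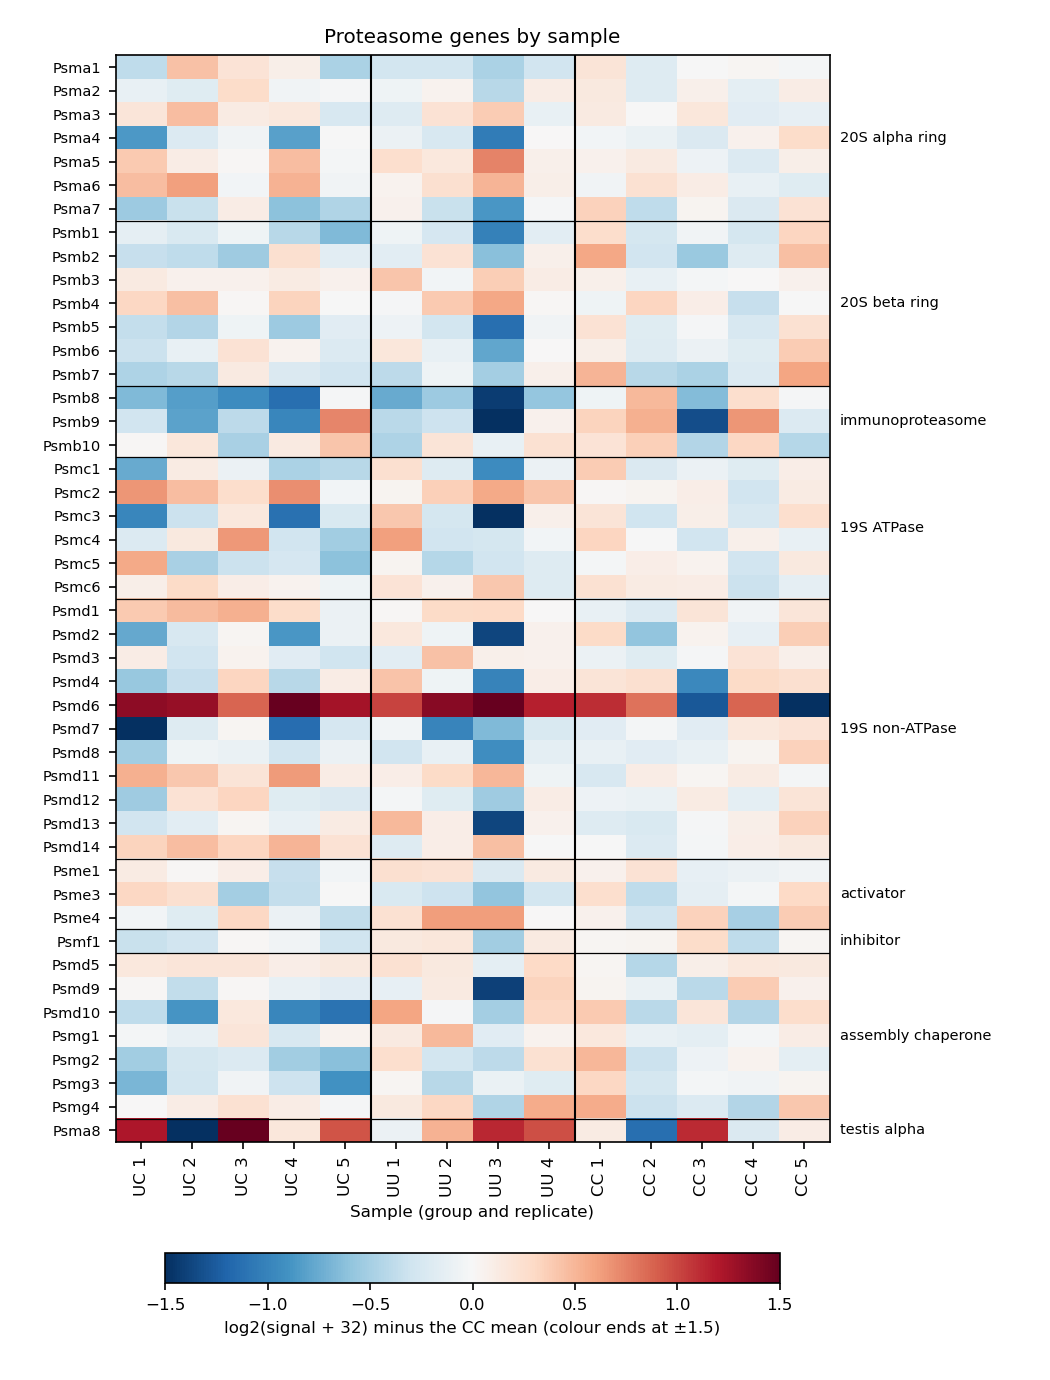
Log2(signal + 32) of 46 proteasome genes (rows, by class) in each of 14 arrays (columns: UC, UU, CC), as the difference from the CC mean of that gene. Blue is lower and red is higher than the CC mean, and colours end at 1.5 either way. Psmd6 is blue in CC replicates 3 and 5 alone, and UU replicate 3 has the most dark blue cells of the UU arrays.

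The alpha ring, which gates the core, was near the CC level. The 7 alpha subunits had a median difference of -0.02 in UC against CC and -0.08 in UU against CC, and ran from -0.39 to 0.30 and from -0.34 to 0.31. Psma6 had signals of 17845.8, 19851.4, 12567.2, 18484.9 and 12425.0 in UC, of 13381.5, 15191.7, 18370.3 and 13707.1 in UU, and of 12435.2, 15182.3, 13896.2, 11989.5 and 11390.2 in CC. The highest values were those of UC replicates 2, 4 and 1 and UU replicate 3, and the groups overlapped. The difference of Psma6 was 0.30 ± 0.17 (SE, limma adjusted p = 0.623) in UC against CC. Psma7 averaged 3085 ± 679 in UC, 3302 ± 893 in UU and 3985 ± 814 in CC (SD, n = 5, 4 and 5). Its differences were -0.37 ± 0.20 (SE, limma adjusted p = 0.63) and -0.29 ± 0.22 (adjusted p = 0.503).

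Psma1, another alpha subunit, was the member whose UU and CC arrays did not overlap. Its signals were 4864.6, 4895.2, 4235.3 and 4836.9 in UU and 6783.7, 5152.5, 5893.7, 6037.3 and 5814.9 in CC, so every UU array was below every CC array. The difference was -0.33 ± 0.18 (SE, limma adjusted p = 0.361). UC arrays covered 4233.8 to 8004.9, which spans both other groups. The dimmer probe sets of Psma1, with signals of 87 to 482.3, gave 0.36 and 0.41 in UU against CC. Probe sets of Psma6 other than the brightest gave 0.16, 0.51 and -0.12 in UC against CC and -0.04, 0.49 and -0.37 in UU against CC.

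The beta ring, which carries the active sites, had medians of -0.24 in UC against CC and -0.18 in UU against CC, with 2 of 7 subunits above 0 in each. With the 3'/5' ratio in the model the median in UC against CC was 0.02. Psmb5, the chymotrypsin-like subunit, had signals of 3064.7, 2885.0, 3748.0, 2679.8 and 3507.6 in UC, of 3733.1, 3253.4, 1780.9 and 3786.2 in UU, and of 4567.9, 3476.8, 3872.2, 3323.8 and 4618.9 in CC. CC replicates 1, 3 and 5 were above every other array, UU replicate 3 was lowest, and the groups overlapped. The difference of Psmb5 was -0.32 ± 0.20 (SE, limma adjusted p = 0.651) in UC against CC and -0.38 ± 0.21 (adjusted p = 0.361) in UU against CC. Psmb6, the caspase-like subunit, gave -0.07 ± 0.18 and -0.18 ± 0.20, and Psmb7, the trypsin-like subunit, gave -0.25 ± 0.22 and -0.22 ± 0.23 (SE). Psmb2, which carries no active site, gave -0.24 ± 0.23 and -0.12 ± 0.25.

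Psmb4, another beta subunit without an active site, had probe sets of opposite sign. The brightest gave 0.22 ± 0.17 in UC against CC and 0.24 ± 0.18 in UU against CC (SE), and the dimmer one gave -0.22 and -0.27. Psmb3, also a structural beta subunit, gave 0.09 and 0.21 with its brightest probe set, and -0.41 and -0.07 with its dimmer one. Psmb1, a further one, gave -0.30 and -0.37 with its brightest probe set, and 0.40 and 0.41 with the next. The direction of these members therefore depends on the probe set.

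Among the immunoproteasome subunits, Psmb8 was lower in both undernourished groups without passing the test. Psmb8, also called LMP7, replaces Psmb5 at the active site. Its signals were 747.9, 667.4, 610.6, 530.2 and 1186.2 in UC, 699.5, 812.5, 429.0 and 795.3 in UU, and 1147.7, 1694.4, 757.6, 1437.7 and 1187.2 in CC. UC replicate 5 and CC replicate 3 were the arrays that made the groups overlap. Psmb8 averaged 749 ± 257 in UC, 684 ± 177 in UU and 1245 ± 350 in CC (SD, n = 5, 4 and 5). The difference was -0.72 ± 0.25 (SE, 95% interval -1.26 to -0.18, limma adjusted p = 0.518) in UC against CC. For UU the value was -0.83 ± 0.27 (SE, 95% interval -1.40 to -0.25, limma adjusted p = 0.174 against CC). Between UC and UU it was 0.11 ± 0.27 (SE, adjusted p = 0.858). Over 29 alternative settings the Psmb8 difference lay between -0.89 and -0.46 in UC against CC and between -0.99 and -0.56 in UU against CC. The value nearest 0 in UC against CC came with the 3'/5' ratio in the model.

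Psmb9 and Psmb10 are the other immunoproteasome subunits. Psmb9, or LMP2, replaces Psmb6 and lay below the signal limit, so its values come from the fit without that limit. Its signals were 584.6, 399.9, 539.7, 349.8 and 1220.1 in UC, 535.1, 573.3, 53.8 and 755.4 in UU, and 916.9, 1057.8, 268.2, 1158.9 and 620.2 in CC. UC replicate 5 was the highest array, UU replicate 3 the lowest, and all groups overlapped. The difference was -0.35 ± 0.55 (SE, limma adjusted p = 0.914) in UC against CC and -0.95 ± 0.58 (adjusted p = 0.49) in UU against CC. Psmb10, or MECL-1, replaces Psmb7. It averaged 1223 ± 268 in UC, 1147 ± 246 in UU and 1192 ± 320 in CC (SD, n = 5, 4 and 5), with differences of 0.05 ± 0.22 and -0.04 ± 0.23 (SE, limma adjusted p = 0.968 and 0.948).

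**Figure D3:**
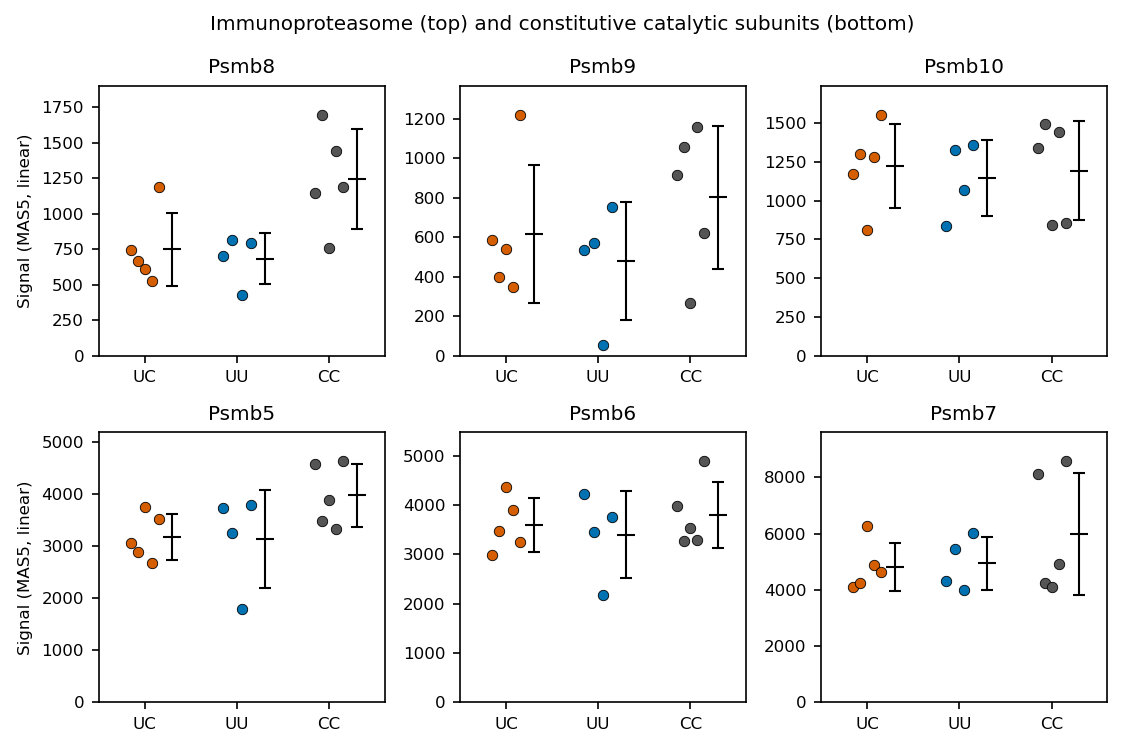
Signal (linear MAS5 units, y axis) of the immunoproteasome subunits Psmb8, Psmb9 and Psmb10 (top) and of the constitutive active-site subunits Psmb5, Psmb6 and Psmb7 (bottom) in UC, UU and CC. Points are single arrays, and bars beside them show the mean ± SD. Psmb8 averages 749 in UC, 684 in UU and 1245 in CC with overlapping arrays, and Psmb10 averages 1223 in UC, 1147 in UU and 1192 in CC.

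The promoters of Psmb8 and Psmb9 are shown because these immunoproteasome genes are induced by interferon signalling, and that of Psmb5 is shown as the constitutive gene that Psmb8 replaces. Each covers 250 bases before to 50 bases after the annotated start in RefSeq, build GRCm38.p6, printed 5′ to 3′ on the strand of the gene. Capitals mark matches to TTCNNNGAA, a STAT core, or TGACNNNGC, an antioxidant response core, on either strand. GAAANNGAA, an interferon regulatory factor core, was also searched. Psmb8 lies at chr17:34197945-34198244 on the plus strand, Psmb9 at chr17:34187281-34187580 on the minus strand and Psmb5 at chr14:54617946-54618245 on the minus strand.
Psmb8: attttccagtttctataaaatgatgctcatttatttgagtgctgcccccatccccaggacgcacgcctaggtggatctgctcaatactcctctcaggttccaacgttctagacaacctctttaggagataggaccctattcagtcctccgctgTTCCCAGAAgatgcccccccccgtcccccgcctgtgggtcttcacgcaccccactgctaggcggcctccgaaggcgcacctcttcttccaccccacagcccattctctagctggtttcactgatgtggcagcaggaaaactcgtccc
Psmb9: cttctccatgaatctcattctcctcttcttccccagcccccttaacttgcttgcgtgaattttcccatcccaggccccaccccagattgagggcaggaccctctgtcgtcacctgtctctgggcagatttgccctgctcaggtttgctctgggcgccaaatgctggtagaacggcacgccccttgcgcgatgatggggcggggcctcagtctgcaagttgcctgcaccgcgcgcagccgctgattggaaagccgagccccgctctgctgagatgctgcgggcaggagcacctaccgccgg
Psmb5: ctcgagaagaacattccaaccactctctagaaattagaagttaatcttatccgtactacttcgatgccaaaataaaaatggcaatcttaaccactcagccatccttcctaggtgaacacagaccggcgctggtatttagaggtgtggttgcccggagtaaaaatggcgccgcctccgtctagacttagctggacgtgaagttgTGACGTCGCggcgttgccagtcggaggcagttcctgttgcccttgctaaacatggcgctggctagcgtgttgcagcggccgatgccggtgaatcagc
The STAT core in Psmb8 begins at position -97 from the start and the antioxidant core in Psmb5 at -47, and none of the 3 motifs is in the Psmb9 window. Psmb9 and Tap1, the peptide transporter, start 226 bases apart on opposite strands. Promoters of 38 of the 46 members were matched, 40 promoters in all. TTCNNNGAA was in 3 of these and in 8.3% of all 32851 promoters, GAAANNGAA in 7 and in 8.56%, and TGACNNNGC in 6 and in 12.4%.

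The MHC class I pathway takes up the peptides made by the immunoproteasome. Of its 7 tested genes, 0 were called in any comparison, where 0.807% of all genes were called in UC against UU and 0% otherwise. In UU against CC 5 of 7 were below 0 and 2 above it, with a range of -1.04 to 0.36. The 0.36 was that of H2-D1, a class I heavy chain, and rests on a low CC array. H2-D1 was at 344.0 in CC replicate 3 and at 9650.2 to 25269.3 in the other CC arrays. In UU against CC 2 of the 7 genes (28.6%) had an unadjusted p under 0.05, where 16.4% of all genes did. Tap1 had signals of 446.6, 563.9, 155.7 and 480.2 in UU and 703.1, 1115.2, 634.9, 1039.1 and 646.9 in CC, so every UU array was below every CC array. The difference of Tap1 was -1.04 ± 0.33 (SE, limma adjusted p = 0.166), and it was -0.67 without UU replicate 3 and -0.18 with the mean of all its probe sets. B2m, the light chain of class I molecules, gave -0.56 ± 0.23 (SE, adjusted p = 0.255). In UC against UU, Tap1 and B2m gave 0.92 ± 0.33 and 0.75 ± 0.23 (SE, limma adjusted p = 0.183 and 0.13), the 2 of 7 genes with an unadjusted p under 0.05, where 17.9% of all genes had one. In UC against CC they gave -0.12 ± 0.31 and 0.19 ± 0.22 (SE), while Psmb8 gave -0.72. Irf1, an interferon-induced activator of these genes, gave 0.13 in UC against CC and -0.06 in UU against CC.

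Leukocytes carry immunoproteasomes, and of their markers mainly those of macrophages were bright enough to be tested. Of 9 tested macrophage markers, 7 were lower in UU than in CC at an unadjusted limma p under 0.05, where 16.4% of all genes had such a p. In that comparison 0 markers and 0% of all genes were called. In UC against UU 8 of 9 were higher in UC at such a p, where 17.9% of all genes had one. There 1 marker was called, where 0.807% of all genes were. In UC against CC 0 of 9 had such a p, where 8.75% of all genes did. The summed signal of all 10 macrophage markers on the array, the untested Fcgr1 included, was 35062 to 88795 in UC, 18886 to 36466 in UU and 37175 to 95297 in CC. Cd68, a lysosomal protein of macrophages, was at 382.6 or more in every array. Ptprc, the pan-leukocyte CD45, differed from CC by -0.83 ± 0.27 in UU and by -0.08 ± 0.25 in UC (SE). Ptprc was the 1 tested gene of 7 lymphocyte markers, and the other 6 and the macrophage marker Fcgr1 lay below the signal limit. Of these dim genes, Fcgr1 averaged 412 in UU and 270 in CC, Cd79a 391 and 301, and Cd3e 104 and 162. Of 8 tested adipocyte markers, 5 were lower in UU than in CC at an unadjusted p under 0.05, where 16.4% of all genes had one. In UC against UU 6 of 8 were higher in UC at such a p, where 17.9% of all genes had one. In UC against CC it was 0 of 8, where 8.75% of all genes had one. The part of either cell type in the Psmb8 difference was not tested.

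In the ATPase ring, which unfolds the substrate, single subunits ran both ways. The 6 ATPases had medians of -0.13 in UC against CC and -0.11 in UU against CC. Psmc2 had signals of 12583.1, 11018.8, 9590.1, 12928.2 and 7744.3 in UC, of 8157.4, 10217.5, 11818.2 and 10610.9 in UU, and of 8062.4, 8196.1, 8531.6, 6523.5 and 8651.7 in CC. Of the UC arrays 4 were above every CC array, and UC replicate 5 lay among them. The difference of Psmc2 was 0.41 ± 0.16 (SE, limma adjusted p = 0.523) in UC against CC and 0.35 ± 0.17 (adjusted p = 0.322) in UU against CC. In UC against CC it was 0.23 without the 3 arrays of highest 3'/5' ratio and 0.26 with the ratio in the model. The other probe set of Psmc2 gave -0.14 in both comparisons. Psmc1 gave -0.32 ± 0.22 and -0.24 ± 0.23, and a probe set of it at signals of 4.4 to 271.7 gave 1.01 and -0.62. Psmc3, the ATPase of widest interval, gave -0.50 ± 0.32 and -0.33 ± 0.34 (SE).

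Psmd6, a non-ATPase subunit of the 19S lid, had the largest differences of any member, and they came from 1 probe set and from a pair of CC arrays. Its brightest probe set had signals of 7871.8, 7700.5, 5694.3, 9372.8 and 7381.6 in UC, of 6295.7, 8005.8, 10880.5 and 6960.5 in UU, and of 6729.3, 5451.7, 1265.8, 5686.8 and 1057.6 in CC. CC replicates 3 and 5 were at 1265.8 and 1057.6 while the other 3 CC arrays lay near the lowest UC and UU arrays. The difference was 1.27 ± 0.44 (SE, limma adjusted p = 0.518) in UC against CC and 1.33 ± 0.47 (adjusted p = 0.188) in UU against CC. The second probe set of Psmd6 was at 5142.4 in CC replicate 3 and 5900.8 in CC replicate 5, within the 4007.9 to 6573.9 of all arrays. It gave 0.21 in UC against CC and -0.11 in UU against CC. With CC replicate 5 left out the difference of the brightest probe set was 0.89 in UC against CC and 0.95 in UU against CC. Without the 4 arrays low in epididymal markers it was 1.83 and 1.90.

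**Figure D4:**
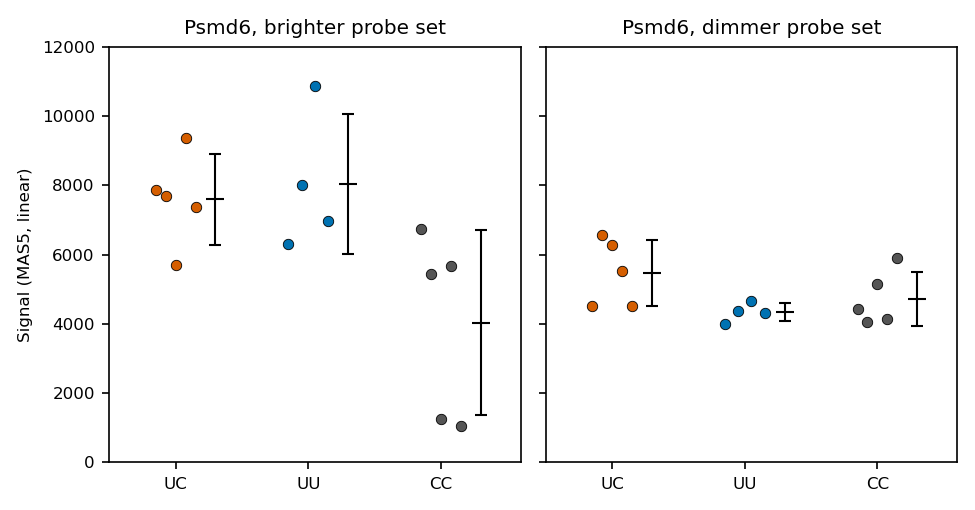
Signal (linear MAS5 units, y axis) of the brighter (left) and dimmer (right) probe set of Psmd6 in UC, UU and CC. Points are single arrays, and bars show the mean ± SD. A pair of CC arrays is at 1265.8 and 1057.6 on the left, and the same arrays are at 5142.4 and 5900.8 on the right.

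Other subunits of the lid and base gave smaller differences. Psmd14, the deubiquitinase of the lid, was the member whose UC and CC arrays did not overlap. Its signals were 8372.6, 9130.8, 8246.1, 9431.7 and 7722.3 in UC and 6565.4, 5734.7, 6476.7, 7062.6 and 7352.0 in CC, so all UC arrays were above all CC arrays. The UU arrays were at 5790.8, 7091.5, 9019.7 and 6567.4 and spanned both. The difference of Psmd14 was 0.37 ± 0.14 (SE, limma adjusted p = 0.518) in UC against CC and 0.09 ± 0.15 (adjusted p = 0.785) in UU against CC. Over 30 alternative settings it lay between 0.28 and 0.44 in UC against CC. Psmd14 in UC against UU gave 0.28 ± 0.15 (SE, adjusted p = 0.315).

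Psmd11, a scaffold of the lid, averaged 14438 ± 2193 in UC, 12802 ± 2213 in UU and 11040 ± 1093 in CC (SD, n = 5, 4 and 5). Its difference was 0.38 ± 0.15 (SE, limma adjusted p = 0.523) in UC against CC, and its 5 other probe sets ran from -0.20 to 0.49. Without the 3 arrays of highest 3'/5' ratio it was 0.24, and with the ratio in the model it was 0.20. Psmd1, the large scaffold of the base, gave 0.32 ± 0.15 (SE, adjusted p = 0.563). Psmd7, the partner of Psmd14, had signals of 297.3, 778.8, 909.8, 388.4 and 748.2 in UC and 792.4, 878.0, 791.6, 1002.9 and 1031.2 in CC. UC replicates 1 and 4, the UC arrays of high 3'/5' ratio, were the lowest. The difference of Psmd7 was -0.61 ± 0.29 (SE, adjusted p = 0.564), and with the mean of all its probe sets it was 0.01. It was -0.14 without the 3 arrays of highest 3'/5' ratio and -0.33 with the ratio in the model. Psmd8, a further lid subunit, gave -0.21 ± 0.17 in UC against CC and -0.37 ± 0.18 (SE, adjusted p = 0.32) in UU against CC, where it was -0.13 with the 3'/5' ratio in the model.

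Psmd4, a 19S subunit that binds ubiquitin chains, gave -0.18 ± 0.29 in UC against CC and -0.13 ± 0.31 in UU against CC (SE). Its dimmer probe sets gave -0.72 and 0.30 in UC against CC. Psmd13 of the lid gave -0.08 ± 0.27 and -0.18 ± 0.28, and its probe sets gave 0.10 and -0.60 in UC against UU.

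Activators, which open the gate without ATP, were near the CC level in UC by their brightest probe sets. Psme1, the interferon-induced PA28 alpha, averaged 4543 ± 567 in UC, 4953 ± 688 in UU and 4623 ± 456 in CC (SD, n = 5, 4 and 5), with differences of -0.03 ± 0.14 and 0.09 ± 0.15 (SE, limma adjusted p = 0.973 and 0.769). The probe set of its partner Psme2 is shared with Psme2b and was not used. Psme3, the nuclear PA28 gamma, gave -0.06 ± 0.20 and -0.35 ± 0.21 (SE). Its dimmer probe sets gave 0.12 and 0.73 in UC against CC, and -0.38 and 0.71 in UU against CC. Psme4, or PA200, had signals of 3092.0, 2789.5, 3947.1, 2968.6 and 2437.5 in UC and 3723.0, 4906.8, 4932.2 and 3190.0 in UU. UC replicate 3 was above UU replicates 1 and 4, so the groups overlapped. The difference of Psme4 was -0.45 ± 0.21 (SE, limma adjusted p = 0.274) in UC against UU, and its other probe sets gave -0.25 and -0.27. In UC against CC Psme4 gave -0.07 with its brightest probe set, and -0.35 and -0.30 with the others. Psmf1, the inhibitor PI31, gave -0.19 ± 0.17 in UC against CC and -0.02 ± 0.18 in UU against CC (SE).

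Among the assembly chaperones, Psmd10 was low in UC. Psmd10, or gankyrin, escorts an ATPase into the base and leaves the finished particle. Its signals were 801.3, 552.6, 1175.7, 519.4 and 469.1 in UC, 1595.3, 1040.3, 731.7 and 1307.9 in UU, and 1395.5, 786.9, 1196.5, 764.1 and 1272.4 in CC. UC replicates 2, 4 and 5 were below every UU and CC array, and UC replicates 1 and 3 lay among them. The difference was -0.64 ± 0.27 (SE, limma adjusted p = 0.549) in UC against CC and -0.73 ± 0.29 (adjusted p = 0.211) in UC against UU. Without the 4 arrays low in epididymal markers, which include UC replicates 2 and 5, the difference of Psmd10 was -0.68 in UC against CC and -0.49 in UC against UU. Psmd10 gave -0.42 in UC against CC when the 3'/5' ratio was in the model.

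Psmg2, which pairs with Psmg1 to build the alpha ring, averaged 987 ± 131 in UC, 1312 ± 307 in UU and 1356 ± 318 in CC (SD, n = 5, 4 and 5). Its difference was -0.43 ± 0.18 (SE, limma adjusted p = 0.549) in UC against CC and -0.38 ± 0.19 (adjusted p = 0.311) in UC against UU, and its other probe set gave -0.32 and -0.29. In UC against CC it was -0.25 with the 3'/5' ratio in the model. Psmg1 gave -0.03 ± 0.14 and Psmd5, a base chaperone, 0.15 ± 0.14 in UC against CC (SE). Psmg3, below the signal limit, gave -0.45 ± 0.22 in UC against CC and -0.17 ± 0.23 in UU against CC (SE) in the fit without that limit. Psma8, the alpha subunit of germ cells, was at 18.5 to 483.3 in all arrays and gave 0.52 ± 0.55 and 0.63 ± 0.58 (SE) in the same fit.

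Genes around the proteasome were described by a list of its assembly and control and a list of ubiquitin and delivery to the proteasome. Of 8 tested genes of assembly and transcriptional control, 0 were called in any comparison. Of all genes, 0.807% were called in UC against UU and 0% otherwise. An unadjusted p under 0.05 was found for 1 of the 8 (12.5%) in UU against CC, where 16.4% of all genes had one. Between UC and UU it was 1 of 8 (12.5%), where 17.9% of all genes had one. In UC against CC 2 of 8 (25%) had such a p, where 8.75% of all genes did. They were Ecpas, which binds and remodels the 26S particle, at -0.46 ± 0.15 (SE, limma adjusted p = 0.488), and Nfe2l1, the factor that drives subunit transcription, at -0.41 ± 0.18 (adjusted p = 0.554). Nfe2l1 averaged 2504 ± 423 in UC, 2769 ± 595 in UU and 3356 ± 658 in CC (SD, n = 5, 4 and 5), and the groups overlapped. Pomp, the chaperone of the beta ring, gave -0.09 and -0.11. Zfand5, a stress-induced proteasome activator, gave -0.57 ± 0.19 (SE, adjusted p = 0.163) in UC against UU. Of 13 tested genes of ubiquitin and delivery, 0 were called in any comparison, where 0.807% of all genes were called in UC against UU and 0% otherwise. Ufd1 and Vcp, parts of one unfolding complex, gave 0.43 ± 0.15 and -0.46 ± 0.22 in UC against CC (SE). Ubqln1, a shuttle for ubiquitinated proteins, gave 0.49 ± 0.18 (SE) in UC against UU. Its relative Ubqln2 went the other way, with mean signals of 6096 in UC and 8236 in UU. In that comparison 8 of the 13 genes were above 0, with a range of -0.44 to 0.49.

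The sign of a member's difference varied with the signal of its probe set, which orders probe sets and not the expression of the genes. The 7 members of highest signal, a number chosen after the values were seen, were Psma3, Psma5, Psma6, Psmb4, Psmc2, Psmd11 and Psmd14. All 7 were above 0 in UC against CC and in UU against CC. Of the 685 tested genes brighter than Psmd14, the dimmest of the 7, 71.5% were above 0 in UC against CC and 49.2% in UU against CC. These 685 genes include the rest of the 7. Of the other 36 members, 19.4% and 33.3% were above 0.

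**Figure D5:**
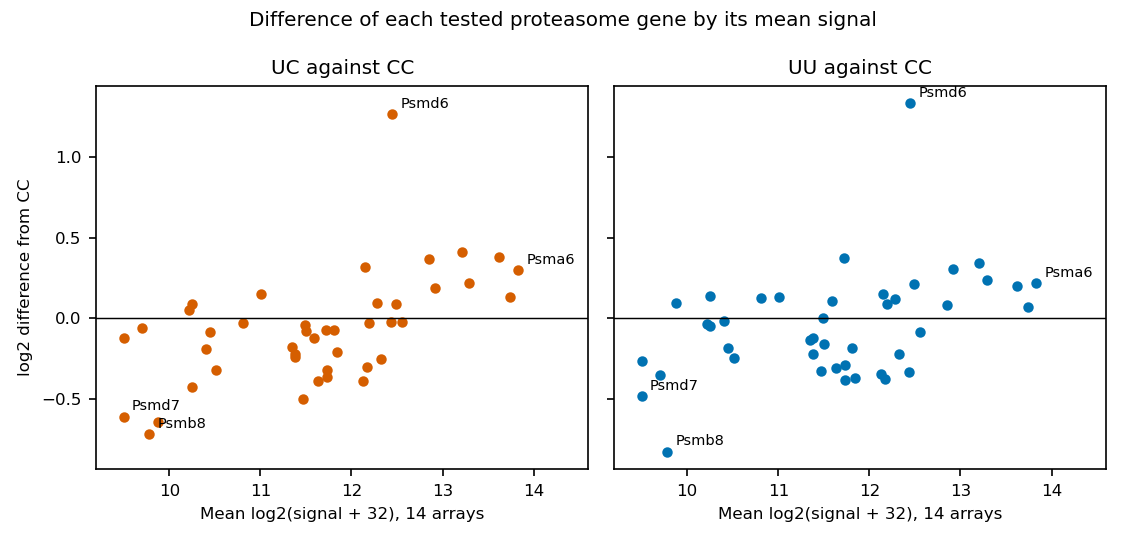
Log2 difference of each of the 43 tested proteasome genes (y axis) by its mean log2(signal + 32) over 14 arrays (x axis), UC minus CC on the left and UU minus CC on the right. The 7 members of highest signal are above 0 on both sides, Psmd6 stands highest and Psmb8 lowest.

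Single arrays differed over the members as a set. The mean deviation of the 31 constitutive 26S subunits from the CC mean was -0.13 to 0.12 in UC, -0.29 to 0.09 in UU and -0.10 to 0.13 in CC. UU replicate 3, the array of highest 3'/5' ratio at 2.10, gave the lowest value of -0.29, and the other UU arrays were between 0.00 and 0.09. For the 3 immunoproteasome subunits UU replicate 3 was at -1.55, against -0.54, -0.22 and -0.10 in the other UU arrays. The difference of Psmb8 in UU against CC was -0.63 without UU replicate 3.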

How the data were processed

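RNA of epididymal fat of 14 mice was measured on single-channel arrays. Groups follow the labels. The authors deposited linear intensity signals that, per the submitters' processing notes, came from GCOS 1.3 and MAS5; the trimmed mean of each array (2% at each end) was 1499.86 to 1499.89. Each gene was given its probe set of highest mean log2(signal + 32) over all arrays, with symbols of the platform annotation updated to RefSeq (20380 of 22690 probe sets have 1 symbol). Of the members, 21 have several probe sets.

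Genes in the dimmest 40% were left out. All arrays entered 1 linear model in limma 3.58.1 (R 4.3.3, empirical Bayes with trend), with 3 two-sided contrasts and Benjamini-Hochberg adjustment over 7436 genes. Scripts ran in Python 3.11.15, with figures from matplotlib 3.10.9. The fit was tested on simulated data. Array number limits the precision, with a median standard error of 0.19 for members in UC against CC and 0.21 against UU.

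Named genes were a panel of active-site subunits, activators and the inhibitor, the 4 members of smallest p per comparison, and the brightest and dimmest of each class. Members below the signal limit, members whose probe sets differed in sign and by over 0.5, and the 2 genes of smallest p per pathway list and comparison were also named. Psmc3 and Psmd1 lay beyond these rules and were named after their values were seen. Other genes named beyond the rules include Psmg1, Pomp, Irf1 and Ptprc. Psmd9, Ngly1 and Rad23b met the rules and are given only here. The probe sets of Psmd9 gave 0.14 and -0.38 in UC against UU. Ngly1 averaged 3471 in UC and 2828 in UU, and Rad23b averaged 2282 in UU and 2814 in CC. Members and lists were chosen with earlier results of these data known. Samples were not treated as paired by replicate number in the main fit. Between same-numbered arrays the deviations from the group means correlated from -0.32 to 0.49, and arrays of unlike number were not compared in this way. Alternatives were the pseudocount, filter, scaling, probe set rule, variance model, array weights, 2-group fits, a looser adjusted p of 0.1, a replicate block and leaving out single arrays; fits without or adjusted for arrays of doubtful tissue, sex or RNA integrity were added after the data were seen. Psmb11 was not analysed here.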

Additional observations from a re-analysis of the deposited data

Results flagged for a closer look

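In 6 of 129 sets of 1 member and 1 group (4.65%), the lowest array stood far below the rest of its group by Dixon's criterion, which chance alone meets in about 1 in 20 sets. In UU replicate 3 these were Psma1 at 4235.3 (other UU arrays 4836.9 to 4895.2), Psmd2 at 1400.4 (3516.9 to 4107.2) and Psmf1 at 957.8 (1525.7 to 1565.2). In CC they were Psmc2 at 6523.5 in replicate 4 (others 8062.4 to 8651.7), Psmd4 at 1403.7 in replicate 3 (3187.3 to 3392.7) and Psmd5 at 1407.5 in replicate 2 (1941.1 to 2115.9). UU replicate 3 also had the highest 3'/5' ratio, and its part in these values was not tested.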

How the results depend on the processing

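The count of called members was 0 in every setting tried, and the median over all members stayed within the spread between replicates, though its sign turned: 0.06 in UC against CC with the 3'/5' ratio in the model, up to 0.07 in UU against CC (without UU replicate 3) and up to 0.11 in UC against UU (median centring). Of 558 alternatives of class medians, 6 moved by more: with the ratio in the model, UC against CC gave 0.02 for the beta ring (-0.24 as reported) and 0.20 for the 19S non-ATPases and for the assembly chaperones (-0.08 each), and the non-ATPases in UU against CC (-0.13) gave 0.11, or 0.10 without UU replicate 3 and without the 3 arrays of highest ratio. The counts of members at an unadjusted p under 0.05 moved, as did those of all genes. Over the settings, 4.79% to 14.7% of all genes were counted in UC against CC. In UC against CC (9 of 43) the count was 5 with the dimmest 60% left out (14.3%, all genes 9.94%), 16 with array weights (37.2%, all genes 14.7%), 3 without the 3 arrays of highest 3'/5' ratio (6.98%, all genes 5.29%), 1 with that ratio in the model (2.33%, all genes 4.79%), and 3 to 10 with single arrays left out. In UU against CC (2 of 43), where 10.4% to 18.2% of all genes were counted over the settings, it was 1 with the dimmest 60% left out, 4 with median centring, 5 with quantile normalization, 4 with every probe set on its own, 6 with array weights, 4 with the 2 groups alone, 4 without the 4 arrays low in epididymal markers, 1 without the 3 of highest ratio, and 2 to 6 with single arrays left out (4 without UU replicate 1 or 2, 6 without UU replicate 4). In UC against UU (2 of 43), where 12.0% to 20.9% of all genes were counted over the settings, it was 1 with the dimmest 60% left out, 4 with every probe set, 1 with no mean-variance trend, 0 without the 4 low epididymal arrays, 1 without the 2 with Xist signal, 0 with the epididymal level as a covariate, and 0 to 3 with single arrays left out (0 without UC replicate 4 or UU replicate 1). With the replicate number as a block the counts were 7, 2 and 2, where 9.24%, 17.7% and 20.1% of all genes were counted. Of 746 alternatives of named genes with an unadjusted p under 0.05, 6 changed sign, each with a dimmer probe set or the mean of all probe sets: Psmd7 at 0.011, Psmc2 at -0.14, Psmd11 at -0.20 and Ufd1 at -0.34 in UC against CC, Psmd6 at -0.11 in UU against CC and Zfand5 at 0.28 in UC against UU. Median centring moved the median of all genes in UC against UU to 0.08, against -0.06 as deposited. The causes were not tested. Precision is limited by how few arrays each group has.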

Other observations

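Psmc3ip, a recombination factor named for its binding to an ATPase subunit, lay below the signal limit and had signals of 428.0 to 1140.5 in UC, 163.0 to 742.4 in UU and 453.8 to 654.3 in CC. Psme3ip1, named for its binding to PA28 gamma, averaged 2070 ± 251 in UC, 2033 ± 203 in UU and 1786 ± 239 in CC (SD, n = 5, 4 and 5), with log2 differences of 0.21 ± 0.13 and 0.19 ± 0.14 from CC (SE, limma adjusted p = 0.658 and 0.509). CC replicate 3, where the brightest probe sets of Psmd6 and Psmd4 were low, also had a signal of 344.0 for the brightest probe set of H2-D1, a class I heavy chain, against 7515.7 to 25269.3 in the other 13 arrays, and the cause was not tested.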
